A study of Homo sapiens with 6 samples.

Results

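Ribosome-bound mRNA was described here in MDA-MB-231 cells that had been starved of serum and had received no added factor. MDA-MB-231 is a human breast cancer line that lacks the oestrogen and progesterone receptors and amplified ERBB2, and the cells used carried a ribosomal protein L10a fused to EGFP. The libraries were chosen by their treatment label, which sets both CXCL12 and IGF1 to 0 ng/mL. They were 2 of the 6 libraries of the series, called untreated a and untreated b below. Cells were held for 24 h in medium with 0.2% serum, and the 6 h slot in which the other libraries received both factors followed. The 4 treated libraries were not used. Everything described is therefore the composition of engineered, starved cells of 1 line, and no unstarved or untagged cells were compared. The labels call a and b biological replicates and do not say how the cultures were separated, nor whether the tagged line was 1 clone or which promoter drove the tag.

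Ribosomes are built from a small and a large subunit, each holding ribosomal RNA and a fixed set of proteins, and several of them read 1 mRNA at once as a polysome. In translating ribosome affinity purification (TRAP), beads with an antibody to GFP pull out ribosomes that carry the tagged L10a, together with the mRNAs bound to them, so that the recovered mRNA stands nearer to protein synthesis than total RNA does. MDA-MB-231 is widely used as a mesenchymal-like, invasive form of breast cancer that has lost much of its epithelial programme. Total RNA was not analysed here, so how much of an mRNA a cell holds, how many ribosomes sit on it and how well it was recovered all enter the values, and more mRNA per cell cannot be told apart from more cells that hold it.

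Reads on genes came to 26255079 in library a and 30280322 in library b, spread over 21619 gene symbols. Levels are given as a gene's reads out of every 1000000 reads on genes (CPM), which is a share of reads, and as TPM, which has the same total but divides each gene's reads by its transcript length first. Orders by CPM, named as such, say which genes took most reads, and levels of different genes are compared by TPM. A gene was called expressed at 1 CPM or more in each library (about 26.3 reads in a and 30.3 in b), silent at 3 reads or fewer in each, and low in between. A count of 0 allows a level of up to 0.114 CPM in a and 0.0991 CPM in b, which covers counting error only.

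Of the 21619 genes, 12182 (56.3%) were expressed, 2455 were low and 6982 (32.3%) were silent, 4743 of these without a read in either library. Of the 18836 protein-coding genes 11595 (61.6%) were expressed, and protein-coding genes held 98.96% of the reads in a and 98.94% in b. Long non-coding RNAs were expressed in 285 of 1531 cases and held 0.406% of the reads in a and 0.425% in b. Reads were spread widely. The 96 genes at 1000 CPM or more took 16.9% of the reads in a and 16.8% in b, the 2275 genes between 100 and 1000 CPM took 53.7% and 53.8%, and the 6898 genes between 10 and 100 CPM took 27.9% and 28.0%. The 10 highest genes held 4.88% and 4.77%, and it took 924 genes in a and 932 in b to hold 50% of the reads.

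The sequence around the start of some of the most abundant ribosome-bound mRNAs is shown first. The mRNAs of the translation machinery are known for a run of pyrimidines at their 5′ end. This is the TOP motif, through which growth signals control their loading with ribosomes. Each line gives 10 bases before and 20 bases from the RefSeq start on GRCh38.p14, and capitals mark an unbroken run of C or T that begins with a C at the start itself.

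RPS18: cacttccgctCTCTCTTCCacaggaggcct
RPS27: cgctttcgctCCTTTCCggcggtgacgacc
RPL35: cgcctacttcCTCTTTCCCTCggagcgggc
RPS21: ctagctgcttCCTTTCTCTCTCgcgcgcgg
RPL7A: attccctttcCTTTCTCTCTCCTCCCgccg
EEF1A1: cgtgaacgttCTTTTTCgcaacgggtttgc
RPL10A: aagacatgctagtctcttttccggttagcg
S100A6: gacacagcccatcccctcgaccgctcgcgt
GAPDH: gtgcatccctgtccggatgctgcgcctgcg

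These windows lie at chr6:33272065-33272094 (RPS18, plus strand), chr1:153990752-153990781 (RPS27, plus), chr9:124861938-124861967 (RPL35, minus), chr20:62387093-62387122 (RPS21, plus), chr9:133348208-133348237 (RPL7A, plus), chr6:73521013-73521042 (EEF1A1, minus), chr6:35468391-35468420 (RPL10A, plus), chr1:153535972-153536001 (S100A6, minus) and chr12:6535254-6535283 (GAPDH, plus). The 5 ribosomal protein genes from RPS18 to RPL7A and the elongation factor EEF1A1 begin with runs of 7 to 16 pyrimidines. Other abundant genes were examined but are not printed. Of these, RPS16 begins with a run of 8 and RPL41 with a run of 5, while TMSB10 and VIM begin with G and have none. RPL10A, S100A6 and GAPDH have none at the RefSeq start, and in RPL10A a pyrimidine stretch lies a few bases further in. Across the 15066 protein-coding genes with a RefSeq promoter and a length, 4.67% began with C followed by at least 4 pyrimidines. Among cytosolic ribosomal protein genes with a promoter in that set, 43 of 64 (67.2%) did. So did 34 of the 100 genes with the highest TPM within that set, but only 2.82% of its 4043 silent genes. Highly expressed genes without a promoter there are left out of these 100. Without the ribosomal protein genes, 62 of those 100 were left and 14.5% of them had such a start. A match describes these letters at the RefSeq start and was not tied to a measured start in these cells.

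By share of reads the list was led by translation, cytoskeleton and glycolysis. EEF1A1, which brings aminoacyl-tRNA to the ribosome, took 12538 CPM in a and 12335 CPM in b, or 1.24% of all reads. S100A6, a small calcium-binding protein, had 7314 and 7182 CPM, and the glycolytic enzyme GAPDH 5360 and 5203 CPM. They were followed by the intermediate filament gene VIM (3674 CPM, mean of a and b), the actin ACTB (3590), the chromatin protein HMGA1 (3508), the secreted IGF-binding protein IGFBP4 (3475), the tubulin TUBB (3040), the glycolytic enolase ENO1 (3008) and the prolyl isomerase PPIA (2996). Places 11 to 20 by CPM went to PKM2, PFN1, RPLP0, LDHA, CALR, RPL3, TMSB10, PTTG1IP, TMSB4X and RPS18, at 2802 down to 1919 CPM. The libraries' own lists of the 100 highest genes shared 98 genes.

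Per length the order changed, and S100A6 stood first at 22391 TPM in a and 21886 TPM in b. TMSB10, which binds actin monomers, came next at 8721 ± 310 TPM (SD, n = 2), followed by RPS18 at 6436 ± 11.9, GAPDH at 5790 ± 141, EEF1A1 at 5756 ± 85.6 and the metallothionein MT2A at 4593 ± 169. GAPDH and EEF1A1 overlapped in TPM between the libraries, while PFN1 at rank 9 (4395 ± 15.1) lay just below RPL10A in both. Between places 10 and 20 stood RPS27, RPL35, RPS21, the galectin LGALS1, VIM, RPS16, RPL41, RPL7A, ACTB and RPL8, from 4217 down to 3716 TPM. RPL10A, the protein that carries the tag, ranked 8 at 4410 TPM in a and 4466 in b, but reads of the cells' own gene and of the tagged copy cannot be told apart. Only 8 genes stood in both lists of 20.

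The length used matters for the abundant short mRNAs. With coding length in place of transcript length, 9 of the 20 highest genes by TPM stayed among the 20 highest. S100A6 remained first at 22266 TPM, while RPL41, whose coding sequence is very short, moved from rank 16 to 2, TMSB4X from 39 to 4 and HMGA1 from 24 to 5, VIM from 14 to 31 and RPL10A from 8 to 45 (1969 TPM). The reference transcript of EEF1A1 used here is 4441 bases long, and with its coding length the gene reached 7442 TPM.

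**Figure D1:**
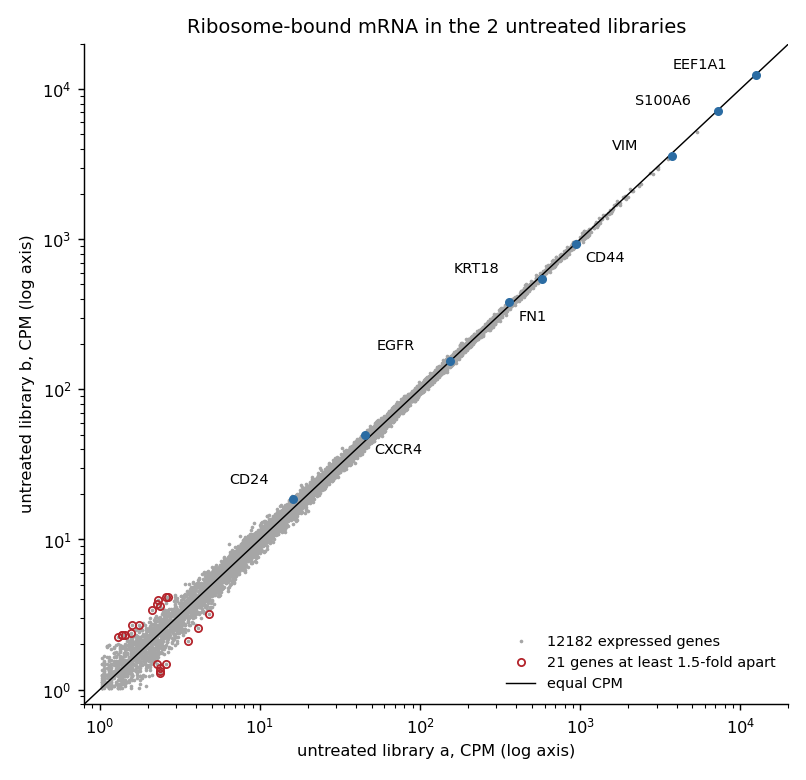
CPM of the 12182 expressed genes in untreated library a (horizontal, log axis) and library b (vertical, log axis), 1 grey point a gene, with 9 genes named. The points follow the line of equal CPM over 4 orders of magnitude, and the 21 genes at least 1.5-fold apart (red rings) all lie below 5 CPM.

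The libraries were close to each other. Over the 12182 expressed genes the Pearson r of log2 CPM was 0.998 and the Spearman rho 0.999, across genes, which are not independent replicates. The chi-square of the counts was 1.98 per degree of freedom over 13364 genes with 20 or more reads, where counting noise alone gives about 1, and the common biological coefficient of variation estimated by edgeR was 2.12%. The SD of the log2 ratio of b to a was 0.52 in genes with 20 to 100 reads in the sum, 0.18 from 100 to 1000 reads, 0.07 from 1000 to 10000 and 0.05 above, beside 0.47, 0.17, 0.06 and 0.02 that counting alone would give. The excess over counting was thus largest, in proportion, in the most deeply covered genes.

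Among 11709 genes with at least 100 reads, 21 (0.179%) were 1.5-fold or more apart, 13 higher in b and 8 higher in a, and none was 2-fold apart. The largest were GTF2H2D (34 reads in a, 68 in b), C19orf57 (61 and 119), C20orf196 (36 and 70), the tight-junction protein CGN (36 and 70) and the calcium sensor VSNL1 (42 and 81) on the b side. On the a side they were MTRNR2L8 (62 and 39), RSG1 (62 and 40), NPEPL1 (68 and 45), PCDH20 (62 and 42) and KIAA1211 (93 and 64). GTF2H2D and MTRNR2L8 have near-identical copies elsewhere in the genome, and only 4.21% of the words of PCDH20 were unique, so these reads are uncertain. Of the lists described below only the epithelial one had a member among the 21, CGN, and of the named families the protocadherins (PCDH20), the ZNF genes (ZNF684) and the uncharacterised LOC genes had 1 each. Taken alone, each library put 814 genes in another state than the other library did, and 1 gene was silent in one and at 1 CPM or more in the other.

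Cytosolic ribosomal proteins, the structural proteins of the ribosome outside mitochondria, were the family with the most reads. They held 6.96% of the reads in a and 7.11% in b (7.04% ± 0.105), and 14.4% of the summed TPM. Of 81 family members 78 were expressed, at 174 to 6436 TPM with a median of 1507 TPM, far above the median of 19.0 TPM over all expressed genes. RPLP0 had the most reads (2388 and 2339 CPM), ahead of RPL3, RPS18 and RPL8 by CPM. The lowest per length, RPL37 at 174 TPM, is divided by a reference transcript of 7686 bases and rests on that length.

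Among the ribosomal protein genes below the limit was RPL21, with 5 reads in a and 3 in b, although its protein belongs to every cytosolic ribosome. RPL21 has many processed copies. Only 39.1% of the 31-base words of its transcript are unique, that is, occur in no other GENCODE gene, and RPL36A (551 TPM), RPL17 (498) and RPS10 (449), which are low for the family, are at 19.0%, 25.9% and 36.1%. Over the whole family the median was 60.6%, against 98.7% over all genes. RPS3A and RPL7A, at 15.4% and 18.0%, nevertheless had 2829 and 3944 TPM. A low share of such words thus did not always come with a low count. RPL10A, the gene of the tagged protein, was at 31.2%, so its level is uncertain too.

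Genes outside the ribosome also had few unique words, which bears on how a count of 0 is read. EIF4A1, the RNA helicase of translation initiation, had 0 reads in both libraries with 1.85% unique words, and the file also lists a read-through gene, SENP3-EIF4A1, over the same exons, with 1 read in each. EIF3C (1 and 4 reads), its copy EIF3CL (0 reads), and the copies SMN1 and SMN2 (0 reads each) had 0.622% to 4.12% unique words. Here too few unique words did not always come with few reads. The glycolytic enzyme ALDOA, at 2.54%, had 32022 reads in a and 35731 in b. Reads without a unique position (2.87% of all reads in a, 2.68% in b) and reads in overlapping genes (1.87% and 1.90%) were not assigned to any gene in the deposited counts. Of 6561 silent genes with a reference transcript 806 (12.3%) had fewer than 50% unique words, against 4.41% of expressed genes. Silence is therefore read below only as few assigned reads, and of 83 silent members of the lists for other tissues and milk proteins, 4 fell under that limit, of 80 silent receptors with a reference transcript 2, and of 41 silent transcription factors 0.

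Most other genes of the translation machinery were expressed. All 77 mitochondrial ribosomal protein genes were expressed (0.691% of reads, 9.38 to 624 TPM), MRPL14 being the highest, as were all 36 aminoacyl-tRNA synthetases (0.366% of reads), which charge tRNAs, and all 16 elongation and poly(A)-binding factors (1.86% of reads). Besides EEF1A1, most reads of these last were on EEF1G (1774 and 1755 CPM) and EIF5A (1017 and 1019 CPM). Initiation factors held 0.996% of the reads, and 49 of 54 were expressed. EIF4G2, EIF4H and EIF1 took most reads by CPM, while EIF6 (773 TPM) and EIF3I (631 TPM) were the higher ones per length among the 6 with most reads.

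Energy metabolism took 2 distinct shares. Glycolytic enzymes, only 20 genes of which 18 were expressed, held 1.97% of the reads in a and 1.91% in b. GAPDH, ENO1 (2637 ± 100 TPM), PKM2 (2120 ± 78.9 TPM) and LDHA (1960 ± 49.9 TPM) led, LDHB stood at 763 TPM, and the hexokinase HK3 (1 and 0 reads) was silent. The nuclear-encoded subunits of the respiratory chain and ATP synthase held 1.49% of the reads in a and 1.52% in b but 2.90% of the summed TPM, and 84 of 93 were expressed. By CPM most reads were on ATP5B, ATP5A1 and COX6A1, which per length stood at 969, 205 and 1938 TPM. The TPM of ATP5A1 is low beside its 579 CPM and rests on the length of its reference transcript. Among 331 solute carriers, which move nutrients across membranes, 170 were expressed, near the share over all genes (56.3%) and below that over protein-coding genes (61.6%). The amino acid carrier SLC7A5 (1765 and 1698 CPM) had most reads, with the mitochondrial phosphate carrier SLC25A3 and the lactate exporter SLC16A3 next by CPM. Per length SLC25A3 (1353 TPM) stood above SLC7A5 (784 TPM) and SLC16A3 (468 TPM).

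**Figure D2:**
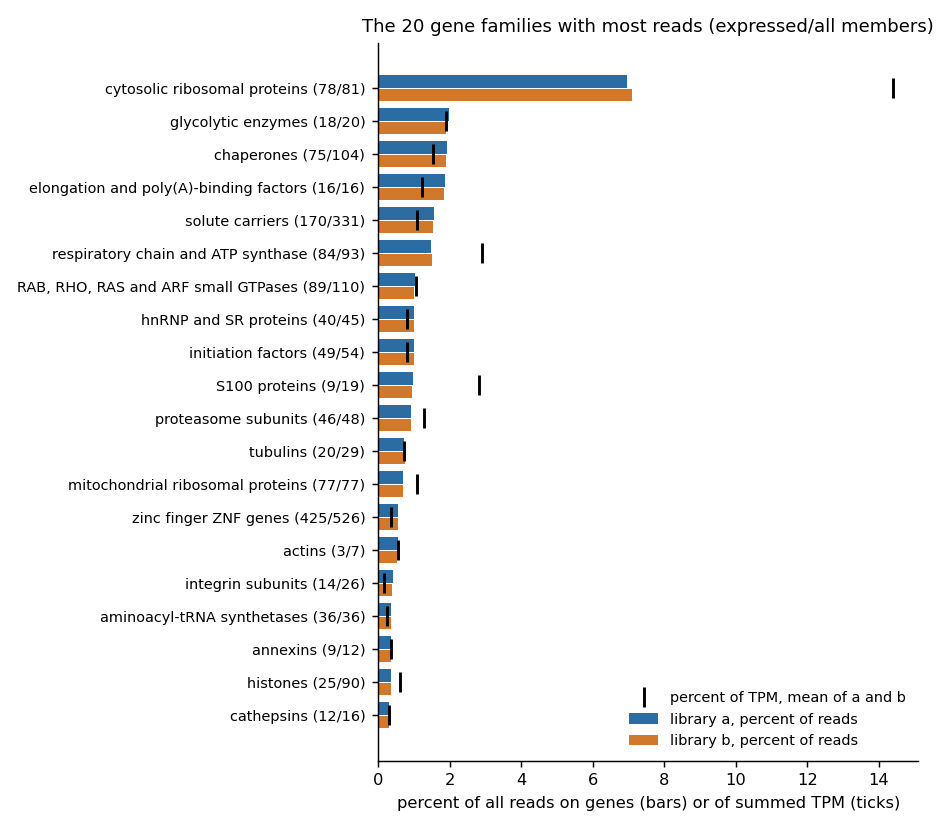
Share of reads (bars, library a and library b) and of summed TPM (ticks, mean of both) for the 20 families with most reads, with expressed and total members in brackets. Cytosolic ribosomal proteins stand apart at 6.96% and 7.11% of reads, and no other family shown reaches 2% of reads.

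Protein folding and turnover followed. Chaperones held 1.91% of the reads, with CALR (2284 ± 33.3 TPM), which folds glycoproteins in the endoplasmic reticulum, and the cytosolic HSPA8 (1341 ± 6.08) and HSP90AB1 (1197 ± 21.1) ahead. Proteasome subunits, which degrade tagged proteins, held 0.926%, and 46 of 48 were expressed. The exceptions were PSMA8 (0 reads) and PSMB11 (0 and 1 reads), the testis and thymus forms. Cathepsins, proteases of the lysosome, held 0.315%, led by CTSD.

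Cytoskeleton and adhesion families held both expressed and silent members, and the counts below stand beside 56.3% expressed over all genes. Among 7 actins ACTB (3842 ± 91.8 TPM) and ACTG1 (1722 ± 13.8) carried nearly all of the level and the smooth-muscle form ACTA2 stood at 3.75 ± 1.04 TPM. TUBB, TUBA1B and TUBB4B had most reads by CPM among 29 tubulins, of which 20 were expressed. Of 55 keratins only 11 were expressed and 39 were silent. They held 0.216% of the reads, with KRT8, KRT18, KRT19 and KRT7 ahead by CPM, then KRT81 (156 TPM), a hair-type keratin, and KRT80 (70.5 TPM). S100 proteins held 0.960% of the reads and 2.81% of TPM through 9 expressed members of 19, and S100A8, S100A9 and S100A12, proteins of myeloid cells, had at most 1 read in a library. Collagens were expressed in 18 of 43 cases and held 0.102%, with COL13A1, COL8A1 and COL4A2 ahead by CPM, while the interstitial COL1A1 stood at 1.94 TPM and COL1A2 at 3 reads and 1 read.

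Transcription factor families with many members held few reads. The counts below stand beside 56.3% expressed over all genes and 61.6% over protein-coding genes. Zinc finger genes named ZNF were expressed in 425 of 526 cases, yet took 0.569% of the reads with a median of 4.26 TPM. HOX genes, which set position along the body axis, were expressed in 7 of 39 cases and took 0.00447%. HOXB9 was the highest (26.1 and 25.3 CPM, 20.5 TPM) ahead of HOXD4, HOXD1 and HOXC6. Forkhead genes were expressed in 20 of 44 cases, beside 56.3% over all genes, and were led by the mitotic regulator FOXM1 (119 TPM).

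Families tied to other tissues were almost empty. Of 393 olfactory receptor genes 1, the pseudogene OR7E14P (1.83 and 1.62 CPM), was expressed and 388 were silent. None of 38 beta-defensins, 87 keratin-associated proteins of hair, or 27 taste receptors was expressed. The 26 microRNA and small nucleolar RNA genes were all silent in these libraries of polyadenylated RNA.

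The 6 markers given for these cells were all expressed. VIM, the filament protein of mesenchymal cells, had 98538 reads in a and 108839 in b, which is 4140 and 3946 TPM. The simple-epithelial keratins KRT18 (767 and 711 TPM) and KRT8 (609 and 590 TPM) were also high. In both libraries VIM was the higher, by 5.40-fold over KRT18 in a and 5.55-fold in b. CD44, the hyaluronan receptor, stood at 338 and 334 TPM, and FN1, the matrix protein fibronectin, at 94.0 and 99.2 TPM. CXCR4, the receptor of CXCL12, was the lowest of them with 1190 and 1495 reads (49.3 and 53.4 TPM). Both libraries gave this order, and with transcript lengths each step was larger than the spread between them. With coding lengths the steps between KRT18 (361 ± 20.4 TPM), KRT8 (355 ± 8.81) and CD44 (350 ± 4.13) were within that spread, FN1 was at 47.2 TPM and CXCR4 at 36.8. KRT18 and KRT8 have processed copies (38.4% and 45.9% unique words), so their levels are uncertain.

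Of 35 mesenchymal genes 22 (62.9%) were expressed, 6 low and 7 silent, beside 56.3% expressed over all genes and 61.6% over protein-coding genes. Besides VIM and CD44, S100A4 (1136 ± 37.9 TPM), a calcium-binding protein linked to motility, the receptor AXL (523 ± 0.763), the matrix cross-linker LOXL2 (402 ± 5.52) and the membrane protease MMP14 (392 ± 3.09) stood high. Transcription factors that repress epithelial genes differed: SNAI2 reached 40.4 TPM, ZEB1 20.7 TPM and ZEB2 2.32 TPM, while SNAI1 had 14 and 22 reads and TWIST1 and TWIST2 had 0. Among cadherins CDH11 was expressed at 45.7 TPM and CDH2, the N-cadherin, had only 6 and 8 reads. Matrix and stromal genes of the list were split, with LOX (21.0 TPM), FBN1 (5.92) and PDGFRB (2.33) expressed, SPARC low at 8 and 5 reads, and DCN (2 and 1 reads) and FAP (0) silent.

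Of 32 epithelial genes 19 (59.4%) were expressed, 9 low and 4 silent, between the shares over all genes (56.3%) and over protein-coding genes (61.6%). This count depended on the limit. At 2 CPM in each library 14 epithelial genes remained, while the mesenchymal list kept 22 and all genes went from 12182 to 11449. KRT19 stood at 595 ± 24.4 TPM and KRT7 at 236 ± 9.94, while the adhesion protein EPCAM reached 14.8 ± 0.0529. CDH1, the E-cadherin that holds epithelial cells together, had 9 and 10 reads (0.144 and 0.139 TPM). Other junction genes were expressed, among them the claudins CLDN7 (68.3 TPM) and CLDN4 (29.6), which form tight junctions, and the desmosome genes PKP3 (29.9) and DSP (13.5). Regulators of the epithelial programme were mixed: the ETS factor EHF (37.7 TPM) and the splicing factor ESRP2 (102 and 97 reads) were expressed, ESRP1 was low (3 and 7 reads), and GRHL2 (3 in each), OVOL2 (1 and 0) and OVOL1 (0) were silent.

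Luminal breast genes were expressed in 14 of 26 cases (53.8%), near the 56.3% over all genes and below the 61.6% over protein-coding genes. Apart from the keratins these were led by the secretory factor XBP1 (96.8 TPM), SLC39A6 (54.8) and SPDEF (53.6). ERBB2 was expressed at 35.1 and 34.9 TPM and GATA3 at 7.54 TPM. The receptors that define hormone-responsive tumours were silent: ESR1, the oestrogen receptor, had 0 and 2 reads, PGR, the progesterone receptor, 1 and 1, and their cofactor FOXA1 3 and 0. Basal genes were expressed in 15 of 26 cases (57.7%). The highest were adhesion and membrane genes, with CAV1 (584 ± 13.1 TPM), ITGA6 (291 ± 4.91), LAMB3 (244 ± 2.77) and EGFR (32.3 and 32.1 TPM) among them. The factor FOXC1 stood at 8.07 TPM. Of the basal keratins KRT15 was expressed (218 and 306 reads), KRT17 was low (26 in each), and KRT5 (0 reads) and KRT14 (1 and 2) were silent, and the basal regulator TP63 (7 and 6) was low. CD24, an epithelial surface protein often set against CD44, had 425 and 566 reads and stood below CD44 per length. It was at 14.3 TPM with transcript and 60.2 TPM with coding length. Although 87.6% of its words are unique, CD24 has copies elsewhere in the genome, and its level is uncertain.

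**Figure D3:**
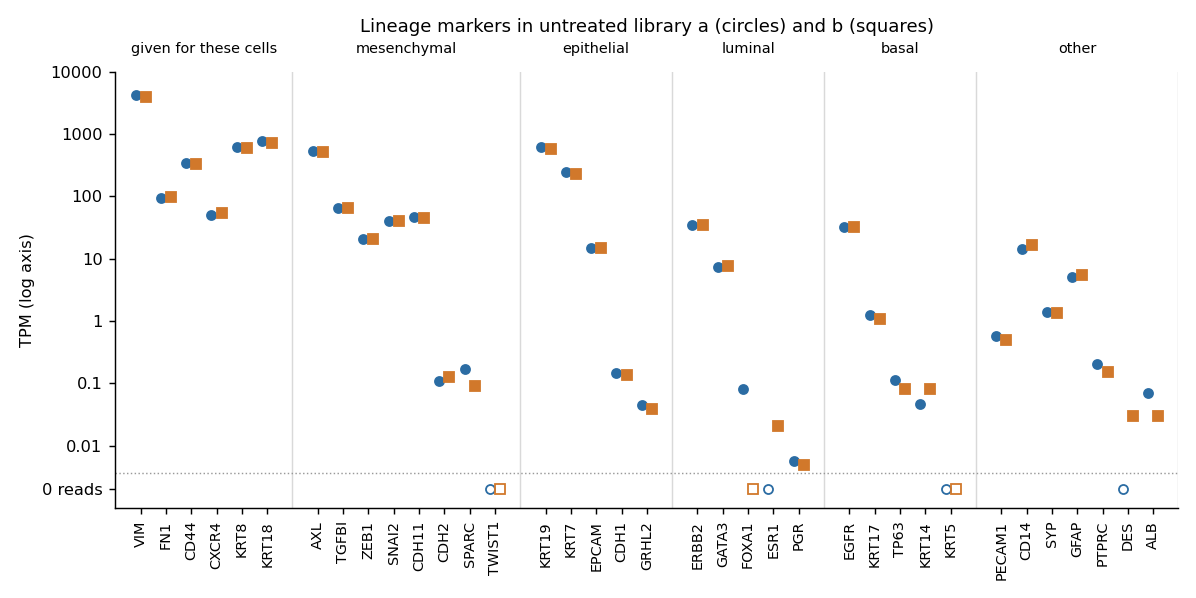
TPM (log axis) of lineage markers in library a (circles) and b (squares), open symbols at the bottom standing for 0 reads. VIM stands highest at 4140 and 3946 TPM, epithelial keratins lie above 200 TPM, and CDH1, ESR1, PGR, KRT5 and TWIST1 lie below 0.2 TPM or at 0.

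Markers of 10 other tissues and cell types, together with a short list of milk proteins, were looked at in the same way. Of their genes 20 were expressed, 20 low and 83 silent, 58 of them without a read, and together they held 0.0718% of the reads in a and 0.0716% in b. The 16.3% expressed compare with 56.3% over all genes. Some genes that define a lineage had 0 reads, among them the T-cell gene CD3D, the endothelial CDH5, the neuronal NEFL and the muscle factor MYOD1. Other members of these lists were expressed and are named below. Albumin (ALB) had 2 and 1 reads, and the leukocyte antigen PTPRC 14 and 12. No pancreatic, germ-cell or milk protein gene in the lists was expressed.

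The 20 exceptions included 6 of 15 neuron and glia genes, 4 of 10 endothelial genes and 4 of 19 blood genes. ESAM, a junction protein of endothelium, was the highest at 398 and 390 TPM, followed by the neuronal tubulin TUBB3 (148 and 152 TPM, 9.37% unique words, hence uncertain), the myelin gene MBP (107 TPM, in a locus that also encodes other proteins), the fat regulator PPARG (28.3 and 29.8 TPM), the monocyte receptor CD14 (15.3), the melanocyte factor MITF (13.3) and the glial filament GFAP (5.28). KDR, GAD1, PMEL, LGR5, LYZ, SYP, CD8A, SERPINA1, TIE1, CSF1R, SYT1, PECAM1 and TTN stood at 0.0294 to 2.19 TPM. Cancer-testis antigens, germ-cell genes that tumours often switch on, were expressed in 2 of 25 cases, MAGEC1 (233 and 243 reads) and MAGEC2 (31 and 39). Of the 20 silent ones 10 had fewer than 50% unique words, so a silent call in this list is uncertain.

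**Figure D4:**
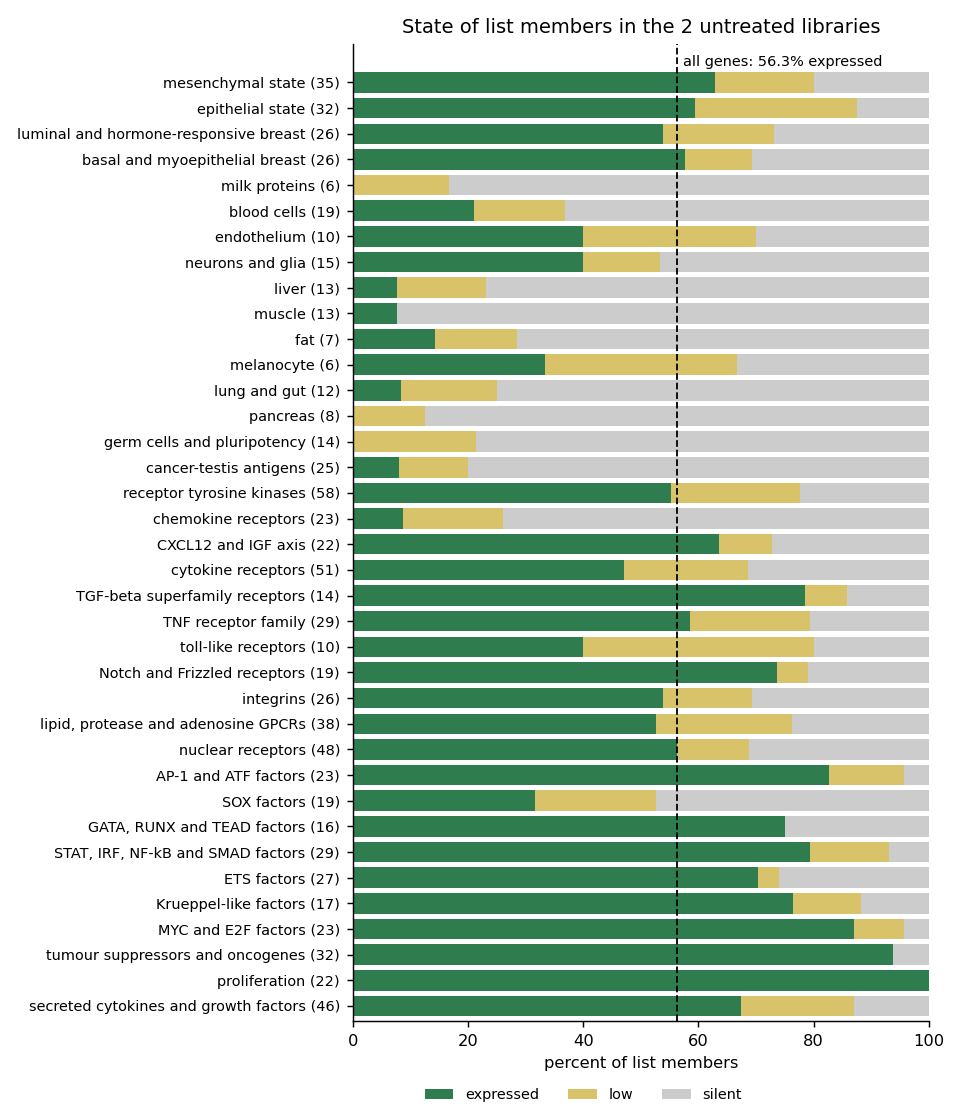
Percent of members expressed, low and silent in 37 gene lists (number of members in brackets), with the 56.3% expressed over all genes as a dashed line. Proliferation genes are all expressed, transcription factor lists lie mostly above the line, and other tissues and chemokine receptors lie below it.

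Receptors of the factors used in the series were unevenly represented. In the list of the CXCL12 and IGF axis 14 of 22 genes (63.6%) were expressed, 2 low and 6 silent, beside 56.3% expressed over all genes. The ligands were silent, CXCL12 with 0 and 1 reads, IGF1 with 0 and 3 (9.07% unique words, hence uncertain), IGF2 with 1 and 0, and INS with 0. Of the 2 CXCL12 receptors CXCR4 was expressed, as given above, and CXCR7 had 1 and 0 reads. The IGF1 receptor IGF1R had 872 and 1080 reads (5.59 and 5.98 TPM) and the insulin receptor INSR 404 and 541 (6.72 and 7.76 TPM). CXCR4 stood above IGF1R per length, 8.87-fold with transcript lengths, while coding lengths gave 36.8 TPM for CXCR4, 6.96 for IGF1R and 3.33 for INSR and so turned the order of IGF1R and INSR. IGF2R, which removes IGF2 from the surface, was at 20.9 ± 0.312 TPM. Downstream of them the adaptors SHC1 (132 ± 6.56 TPM), GRB2 (110 ± 1.14), IRS1 (23.9 and 25.6), IRS2 (10.7 ± 0.180) and GAB1 (2.65 ± 0.0759) were expressed, and IRS4 had 0 reads.

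The secreted IGF-binding proteins, which hold IGFs in the medium, included the highest genes of this axis. IGFBP4 had 3293 TPM in a and 3200 in b, IGFBP7 1304 ± 21.2, IGFBP1 212 ± 0.595, IGFBP6 203 ± 2.65 and IGFBP3 121 ± 4.31. IGFBP5 (16 and 14 reads) was low, as was IGFBP2 (2 and 4). Thus 5 of the 7 binding proteins were expressed, and IGFBP4 alone ranked 7 of all genes by CPM.

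Of 58 receptor tyrosine kinases, which start growth signals at the cell surface, 32 (55.2%) were expressed. That is close to the 56.3% over all genes and below the 61.6% over protein-coding genes. AXL led at 523 and 522 TPM, then the ephrin receptor EPHA2 (249 and 235 TPM) and PTK7 (95.2 and 91.4 TPM). FGFR1 (51.9 TPM), MET (38.1), DDR1 (36.5), ERBB2 (35.0) and EGFR (32.2) formed a middle group in which ERBB2 and DDR1 differed by less than 2 TPM. PDGFRA (0 and 2 reads), RET (0 and 2), ERBB4 (1 and 1), ALK (0) and FLT3 (0) were silent. Chemokine receptors formed the emptiest receptor list. Of 23, only CCRL2 (59.2 and 52.0 TPM) and CXCR4 were expressed, at levels that overlap between the libraries, and 17 were silent.

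Cytokine receptors were expressed in 24 of 51 cases, led by IL10RB (63.0 TPM), IL13RA1 (53.0) and IL15RA (51.4). The signalling subunit IL6ST stood at 45.2 TPM while its IL-6 partner IL6R had 16 and 14 reads. Receptors of TGF-beta ligands were expressed in 11 of 14 cases (TGFBR2 125, TGFBR1 32.7, ENG 20.3 TPM), and of the TNF receptor family in 17 of 29 (TNFRSF12A 525, TNFRSF21 176, TNFRSF1A 147 TPM). Toll-like receptors were expressed in 4 of 10 cases, TLR4 being the highest at 8.49 TPM. Among Notch, Wnt and Hedgehog receptors 14 of 19 were expressed, with FZD2 (141 TPM), LRP5 (106) and FZD6 (39.0) ahead, and SMO, the Hedgehog transducer, had 0 reads. Integrins, the receptors for matrix, were expressed in 14 of 26 cases and were led by ITGB1 (674 ± 21.9 TPM), ITGA3 (424 ± 7.28) and ITGA6 (291 ± 4.91). G protein-coupled receptors for lipids, proteases and adenosine were expressed in 20 of 38 cases, with the protease receptor F2RL1 (250 TPM), the adenosine receptor ADORA2B (174) and the lysophosphatidic acid receptor LPAR1 (85.1) ahead. Over the 10 receptor lists together 149 of 286 genes (52.1%) were expressed and 82 were silent. This lies below the 56.3% expressed over all genes and the 61.6% over protein-coding genes. TNF receptors (58.6%), integrins (53.8%) and these G protein-coupled receptors (52.6%) lay around the share over all genes but below that over protein-coding genes. Cytokine receptors (47.1%) lay below both.

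Transcription factors were expressed more often. The 8 lists gave 139 expressed genes of 202 (68.8%), beside 56.3% of all genes and 61.6% of protein-coding genes, and held 0.813% of the reads in a and 0.814% in b. By list, SOX factors (31.6%) lay below both shares and nuclear receptors (56.25%) at the share over all genes. The rest ran from 70.4% in ETS factors to 87.0% in MYC and E2F factors. These lists were chosen from well-studied families and were not compared by a test.

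AP-1 and ATF factors, which answer growth and stress signals, were expressed in 19 of 23 cases. FOSL1 stood first at 600 and 576 TPM, ATF4, the effector of the amino acid response, at 397 and 396, and JUND at 238 and 224. FOS, the immediate-early partner, stood at only 4.91 and 4.08 TPM, so that FOSL1 was 132-fold higher per length. MYC and E2F factors, which drive growth and S phase, were expressed in 20 of 23 cases, with MYC at 185 and 194 TPM, TFDP1 at 136 and 136 and E2F1 at 96.3 and 99.5, and MYCN had 0 reads.

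GATA, RUNX and TEAD factors with their cofactors were expressed in 12 of 16 cases. TEAD1 (108 TPM), TEAD4 (63.5) and the Hippo coactivators YAP1 (63.1) and WWTR1 (62.6) were the highest, while GATA1, GATA4 and GATA5 had 0 reads. ETS factors were expressed in 19 of 27 cases, with ETS1 (180 ± 4.94 TPM), ETV4 (130 ± 4.78) and SPDEF ahead, and Krueppel-like factors in 13 of 17, with KLF6 (54.7), KLF16 (51.0) and KLF2 (33.3) ahead. STAT, IRF, NF-kB and SMAD factors were expressed in 23 of 29 cases (RELA 121, IRF3 95.3, STAT3 58.4 TPM), and the lymphoid IRF4 and IRF8 had 0 reads. SOX factors were the sparsest of these lists, with 6 of 19 expressed, led by SOX9 (62.6 TPM), SOX13 (34.4) and SOX12 (32.0), and SOX10, a neural crest and basal breast factor, at 0 reads.

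Nuclear receptors, the factors that bind steroids, retinoids and lipids, were expressed in 27 of 48 cases (56.25%). That equals the share over all genes (56.3%) and lies below that over protein-coding genes (61.6%). The oxysterol receptor NR1H2 (110 ± 4.41 TPM), RXRB (74.6 and 72.8) and NR2F2 (69.8 ± 3.95) led. The glucocorticoid receptor NR3C1 stood at 30.6 and 30.9 TPM. The second oestrogen receptor gene ESR2 was low (9 and 10 reads), and ESR1 and PGR were silent.

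All 22 proliferation genes were expressed although serum had been reduced for 24 h. CDC20, which triggers anaphase, stood at 427 and 429 TPM, the replication clamp PCNA at 311 and 322, and TYMS, which makes thymidylate, at 286 and 285. The lowest was the helicase subunit MCM6 at 47.1 TPM, and MKI67, the Ki-67 marker, stood at 73.9 and 76.6. Over the list the median was 176 TPM, beside 19.0 TPM over all expressed genes. Cells before starvation were not analysed here, so no change is read from these levels.

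Of 32 tumour suppressors and oncogenes 30 (93.75%) were expressed, beside 56.3% over all genes and 61.6% over protein-coding genes. The cyclins CCND1 (512 and 482 TPM) and CCND3 (238 and 239 TPM) and HRAS (288 and 294 TPM) were ahead. The cell-cycle inhibitor CDKN1A stood at 99.7 ± 1.14 TPM. CDKN2A and CDKN2B, neighbours on chromosome 9 that encode inhibitors of CDK4 and CDK6, had 0 reads in both libraries, and 94.9% and 98.1% of their words are unique. Loss of this locus in MDA-MB-231 is known from elsewhere and was not measured here. Secreted cytokines and growth factors were expressed in 31 of 46 cases (67.4%), beside 56.3% over all genes. They were led by VEGFA (289 and 288 TPM), BMP4 (226 and 222) and IL11 (217 and 216), with TNF and HGF at 0 reads.

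Promoter sequence differed between silent and expressed genes as groups, with wide overlap, but hardly ordered the expressed ones. CG dinucleotides were counted in the 300 bases from 250 before to 50 after the RefSeq start. The median count was 6 in 4043 silent genes and 15 in 1400 low genes. It was 25, 27, 28 and 27 in the expressed genes, taken as 4 groups of nearly equal size from the lowest TPM to the highest. The quartiles overlapped, at 2 to 19 in silent genes and 15 to 33 in the lowest expressed group. The motif TATAAA, searched on the sense strand of the 50 bases before the start, was found in 8.88% of silent genes, 4.21% of low genes and at most 2.16% in any of the 4 expressed groups, beside 3.86% of all. Among the 100 genes with the highest TPM of those with a RefSeq promoter it was found in 10%. The order by TPM depends on the transcript length used, and no match says more than that these letters are in the window.

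**Figure D5:**
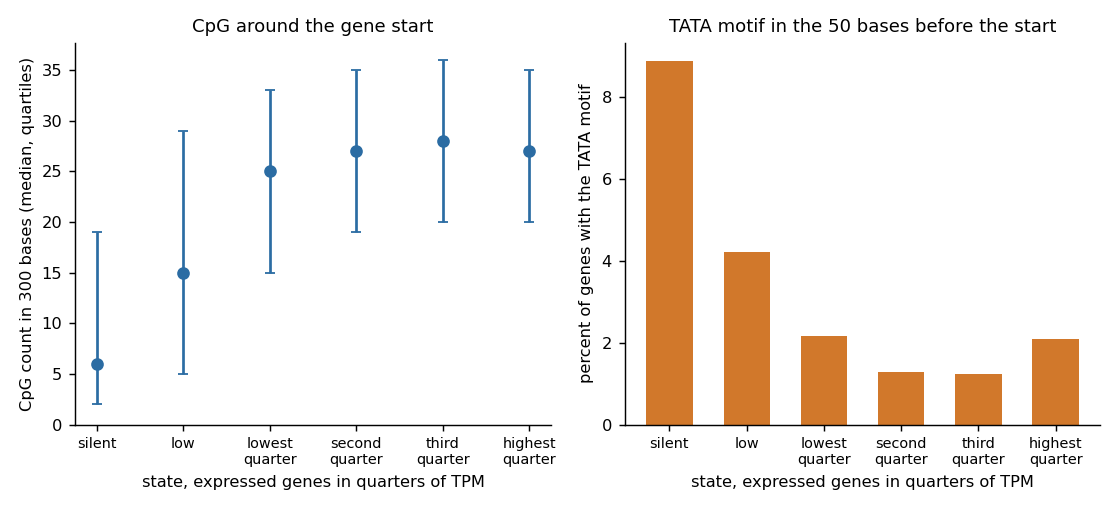
Left, CpG count in the 300 bases around the gene start (points, medians; bars, quartiles), and right, percent of genes with the TATA motif in the 50 bases before the start, for silent, low and expressed genes, the last in 4 groups by TPM. The median CpG count goes from 6 in silent genes to 25 to 28 in expressed genes, and the motif from 8.88% to at most 2.16%.

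As examples of single promoters, which vary widely about these medians, the 100 bases before the RefSeq start are given for 1 highly expressed and 3 silent genes, with CG dinucleotides in capitals (GRCh38.p14).

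VIM: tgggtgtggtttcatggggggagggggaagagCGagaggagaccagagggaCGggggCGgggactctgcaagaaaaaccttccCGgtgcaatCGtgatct
ESR1: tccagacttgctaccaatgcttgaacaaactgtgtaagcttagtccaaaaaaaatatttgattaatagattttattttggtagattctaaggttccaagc
ALB: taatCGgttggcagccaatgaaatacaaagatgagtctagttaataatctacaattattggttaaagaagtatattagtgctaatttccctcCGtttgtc
KRT5: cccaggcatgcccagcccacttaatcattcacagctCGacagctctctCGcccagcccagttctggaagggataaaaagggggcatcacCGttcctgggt

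They lie at chr10:17228141-17228240 (VIM, plus strand), chr6:151656572-151656671 (ESR1, plus), chr4:73404187-73404286 (ALB, plus) and chr12:52520395-52520494 (KRT5, minus). VIM, at 4043 TPM, has 5 CG in this window, ESR1 has 0, ALB has 2 and KRT5 has 3. In the 300 bases the counts are 10, 4, 4 and 7, so that VIM lies well under the median of its expression group and KRT5 just above that of silent genes. ESR1 has several starts and only the RefSeq one is shown. Within the lists the same direction was seen. The median count was 20.5 in the 30 expressed and 8 in the 10 silent genes of the epithelial, luminal and basal lists. Among transcription factors it was 24 in 112 expressed, 23 in 17 low and 14 in 29 silent genes, with ranges of 1 to 65 in expressed and 1 to 53 in silent ones. In the lists of other lineages it was 12.5 in 14 expressed, 4 in 14 low and 5 in 54 silent genes.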

How the data were processed

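Each library came as 1 deposited table of integer read counts by gene symbol. HTSeq, TopHat 1.4.0, CASAVA 1.8.1 and the hg19 build are listed in the submitters' processing notes. The annotation, the counting mode and any use of strand were not given in the sources used here, so that reads of overlapping and antisense genes cannot be told apart. HTSeq's 5 summary lines (10.0% of reads in a, 9.40% in b) were left out of totals. The treated libraries were not used, and no test was run, since both libraries form 1 group. CPM are reads over the total on genes. TPM used transcript lengths from GENCODE 29 (GRCh38), found for 20881 symbols, the longest among the transcripts with the best APPRIS level; no coordinate of that build was joined to the counts. Unique words are the 31-base words of that transcript, on either strand, found in no other gene's transcript. Promoters and names came from RefSeq (GRCh38.p14). Genes were named as markers, as members of the CXCL12 and IGF axis, as the 20 highest by CPM and by TPM, as the 3 highest expressed members of each of 38 lists and 38 families, as expressed members of other lineages, and as the 5 genes furthest apart each way; other names, among them the genes with few unique words, were added after their values were seen. Members and lists were chosen with earlier results of these data known. Dispersion came from edgeR 4.0.16 (R 4.3.3), and the agreement script was tested on simulated data; other steps used Python 3.11.15. Intervals and limits cover counting error only. Some genes that these rules name are not reported here.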

Additional observations from a re-analysis of the deposited data

How the results depend on the processing

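No paired analysis was possible because both libraries belong to 1 group and no test was run. The count of expressed genes was 12832 at 0.5 CPM, 11449 at 2 CPM, 13177 at 10 reads and 11684 at 1 TPM, and 12286 to 12309 with 1 library alone; silent genes numbered 4743 at 0 reads and 8153 at 10 reads, and 7212 to 7336 with 1 library alone. Limiting both to the 15532 genes with at least 90% unique words, chosen after seeing the data, left 9134 expressed (58.8%) and 4730 silent (30.5%). With the summary lines in the total, the 100 highest genes held 15.6% of reads in place of 17.2%, and ribosomal proteins 6.35% in place of 7.04%; as shares of TPM these were 27.1% and 14.4%. With 1 library alone they were 17.2% to 17.3% and 6.96% to 7.11%. VIM moved from 4043 to 2180 TPM with coding lengths and was 3946 to 4140 TPM with 1 library alone. Expressed list members numbered 474 at 0.5 CPM and 406 at 2 CPM, beside 441, and 444 with either library alone. TMM and DESeq2 1.42.0 scaling left 21 genes past 1.5-fold and a chi-square of 1.98. Depth limits the reading below about 100 reads, where the libraries differed by more than 1.5-fold in 20.6% of genes with 20 to 100 reads.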
